A study of Glycine max with 15 samples.

Results

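This account concerns 154 soybean genes, of 54175 gene IDs in the deposited tables, whose transcripts were much lower than in control after 8 h of high brassinolide, by the name of the table, and close to control in the other 3 tables. Members were chosen on L, the log2 of (treated FPKM + 1) over (control FPKM + 1), where FPKM is the fragment count scaled for transcript length and library size. A gene was kept where control stood at 1 FPKM or more in every table, L was -1.5 or lower at 8 h and the absolute L was below 0.5 in each of the other tables. Of the 28736 genes at that control level, which are called expressed genes here, 7563 met the limit in the other 3 tables. These are called flat genes, and the members were 2.04% of them, under the cap of 200 that the rule allows.

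The libraries came from seedlings of Glycine max, cultivar Williams 82, grown for 10 days to the first vegetative stage, and whole seedlings were collected. There were 15 libraries in 5 groups of 3: mock-treated control; 5 mM propiconazole (Pcz); the same dose of Pcz together with 10 nM brassinolide (BL); and that dose of Pcz followed by 1 mM BL, with 1 h or 8 h of exposure (dose units are copied from the labels). Every treated group therefore received the inhibitor, and no group received inhibitor and then a mock addition. Each deposited table holds 1 pooled FPKM for control and 1 for a treated group, so the spread between libraries cannot be shown, and the authors' Cuffdiff q is the measure of significance. The depth of the libraries is unknown.

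The sheet names and column headers of the tables conflict. The sheet Pcz-BL-8h has a header that reads Pcz-BL, the sheet Pcz-BL-1h a header that reads Pcz-BL-8h, and the sheet Pcz-BL a header that reads Pcz-BL-1h. Sheet names, which the sample labels cite, were followed here. The sheets Pcz, Pcz-BL, Pcz-BL-1h, Pcz-BL-8h are called the inhibitor table, the low-BL table, the 1 h table and the 8 h table. If the headers were right, the lowering described here would belong to a group headed Pcz-BL, and the rule applied by header would pick 7 genes, 0 of them among the 154.

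Brassinosteroids are plant steroid hormones that promote cell elongation and cell division. Brassinolide, the most active of them, binds a receptor kinase at the cell surface, and the signal reaches transcription factors that raise some genes and repress others, including genes for the hormone's own synthesis. Propiconazole is a triazole that blocks a cytochrome step in that synthesis. Whether the treated seedlings were short of their own hormone cannot be seen from the values used here. None of the 54175 IDs (0) matched the 59048 genes of the reference table used here (assembly Glycine_max_v4.0), and no deposited file gives names for them. Gene functions, the fixed pathway lists and seedling tissue markers were therefore not analysed, and the genes are described by ID, position and level.

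Levels in the 8 h table were a small share of control, as the rule required. The treated level was 18.4% of control at the median, with a range from 1.88% to 32.1%. Control FPKM in that table ran from 2.38 to 309 with a median of 7.57, and treated FPKM from 0.0447 to 64.8 with a median of 1.33. At 8 h, 55 of the 154 genes stood under 1 FPKM. Median L was -1.73, between -2.73 and -1.51, against -0.20 over expressed genes, and 32 members reached -2 or lower. Without the added 1 FPKM, the log2 ratio ran from -5.73 to -1.64 with a median of -2.44, so L understates the change of the genes with low levels.

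**Figure D1:**
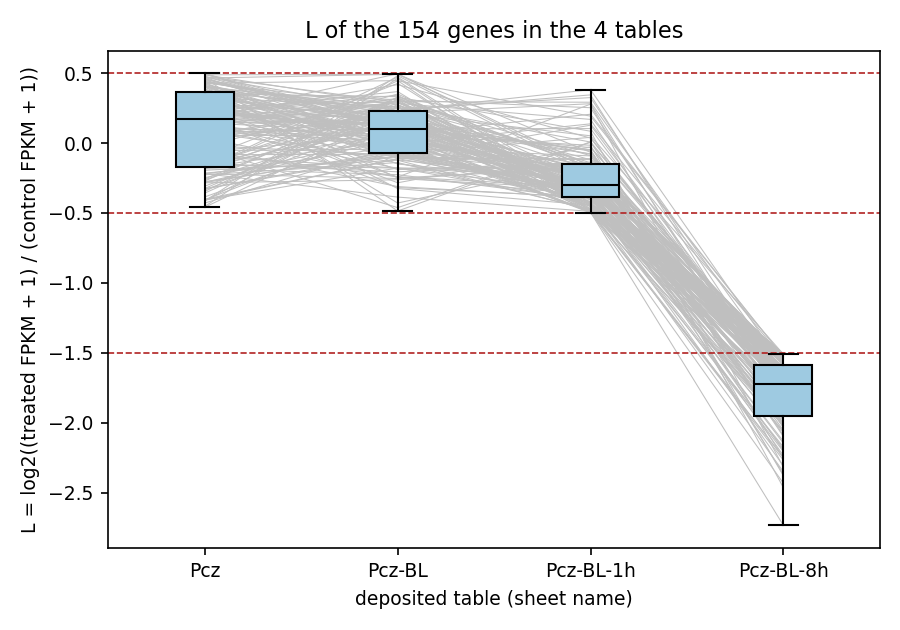
L of the 154 genes (log2 scale) in each deposited table, named by sheet. Each grey line is 1 gene and joins its values without implying an order of treatments, boxes show quartiles and median, whiskers reach the lowest and highest gene, and dashed lines mark the limits of the rule at 0.5, -0.5 and -1.5. Medians from left to right were 0.17, 0.10, -0.30 and -1.73.

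In the other 3 tables the members were not spread evenly about control. At 1 h 134 of 154 had L below 0 (87.0%, against 62.0% of flat genes), and median L was -0.30 against -0.09 over flat genes. With inhibitor alone, 54 of 154 lay below 0 (35.1%, against 37.2% of flat genes), with a median of 0.17 against 0.10. In the low-BL table it was 52 of 154 (33.8%, against 57.9%), with a median of 0.10 against -0.06. L was lower at 1 h than with inhibitor alone for 130 of the 154. The medians of flat genes moved the same way, from 0.10 with inhibitor alone to -0.09 at 1 h. The matching share of flat genes was not computed, so the 130 cannot be read as particular to the members. These 4 comparisons share their control libraries, and the rule used all of them, so the values are a description.

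By the authors' test, the word "only" holds for the size of the change and not for every call. In the authors' deposited table for 8 h, 149 of 154 members were called lower at q of 0.05 or less, where 30.7% of all tested genes were called lower, and the rule used this contrast. Their q lay between 0.000181 and 0.0145, and 141 members had the smallest p that the authors' deposited table holds (5e-05). In the authors' deposited table for 1 h, 40 members were called lower (background 26.5%) and 1 higher (25.6%), and L of the 40 ran from -0.50 to -0.34. The shares at 1 h were 26.0% of members and 10.2% of flat genes called lower, and 0.649% and 4.15% called higher. The authors' deposited table for the inhibitor called 23 members higher (background 24.9%), with L from 0.40 to 0.50, and 5 lower (28.4%). These were 14.9% and 3.25% of members, against 8.38% and 2.81% of flat genes. The rule held flat genes and members alike to an absolute L below 0.5 in these tables, and chose the members among them on a contrast with the same control libraries. The authors' deposited table for low BL called 1 member higher (background 13.4%) and 0 lower (22.8%), where 5 and 1 had an unadjusted p of 0.05 or less. In all, 95 members (61.7%) were called in none of the other 3 tables, against 76.1% of flat genes and 23.5% of all genes tested in the 3 tables, and 59 (38.3%) were called in at least 1, against 23.9% and 76.5%. Another count was of genes called higher with inhibitor alone and lower at 1 h, which held 7 members (4.55%), 1.14% of flat genes and 5.0% of all. Counted in either direction, 28, 1 and 41 members were called in the inhibitor, low-BL and 1 h tables, where 53.4%, 36.2% and 52.1% of tested genes were. At a q of 0.01 or less in the authors' deposited tables, 1, 0 and 8 were called (backgrounds 42.3%, 26.5% and 41.8%) and 148 were lower at 8 h (24.7%). With p taken instead from a normal distribution for the test statistic, 151 members were called lower at 8 h (background 17.2%), and 2, 0 and 0 in the inhibitor, low-BL and 1 h tables (34.3%, 15.7% and 29.7%). The calls at 1 h therefore rest on the authors' own p.

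The members with the lowest L had control levels from 6.86 to 22.4 FPKM in the 8 h table. Glyma18g02430 (chromosome 18, 1529388 to 1539177) had the lowest L of all, with control at 21.2, 24.7, 24.8 and 20.6 FPKM in the inhibitor, low-BL, 1 h and 8 h tables, an order kept below. Its treated levels were 15.2, 28.6, 17.3 and 2.25 FPKM. It was below control at 1 h as well as 8 h and above it with low BL. The log2 ratio computed from these FPKM without the added 1 was -3.20 at 8 h, -0.48 with inhibitor alone and -0.52 at 1 h. The standard error at 8 h was 0.503, computed here as that ratio over the authors' test statistic, as are all standard errors given. In the authors' deposited tables the gene was called lower at 8 h (q = 0.000181), with inhibitor alone (q = 0.0417) and at 1 h (q = 0.0121). Its locus entry is shared with another gene ID, so the span given for it may cover more than that gene.

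Glyma10g07601 (chromosome 10, 6336193 to 6353470) was called at 8 h alone. Its control levels were 9.22, 8.58, 8.61 and 7.12 FPKM in the 4 tables, and its treated levels 7.81, 7.95, 7.85 and 0.573 FPKM. The first 3 treated groups therefore lay within 0.21 of control on the L scale, and only the last stood apart. The computed log2 ratio at 8 h was -3.64 with a standard error of 0.564. The authors' deposited table for 8 h gave q = 0.000181, and the smallest q in the other 3 authors' deposited tables was 0.294.

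Glyma10g43870 (chromosome 10, 50416587 to 50427112) and Glyma17g11590 (chromosome 17, 8698342 to 8707808) were already lower at 1 h. For Glyma10g43870 treated levels were 18.5, 18.8, 12.7 and 1.99 FPKM against controls of 17.0, 18.3, 18.3 and 15.1 FPKM. For Glyma17g11590 they were 13.8, 12.6, 11.7 and 2.10 FPKM against 16.2, 16.7, 16.8 and 13.9 FPKM. Both were called in the authors' deposited table for 1 h (q = 0.00887 and 0.00939) with L of -0.49, just inside the limit of the rule. Glyma09g07141 (chromosome 9, 6004109 to 6014564) went both ways: in the authors' deposited tables it was higher with inhibitor alone (11.9 to 16.7 FPKM, q = 0.0276), lower at 1 h (13.1 to 9.38 FPKM, q = 0.0120) and lower at 8 h (10.8 to 1.32 FPKM, q = 0.000181).

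The other genes among the 10 with the lowest L included 2 that the authors' test did not call. Glyma20g12263 (chromosome 20, 17457692 to 17476828) went down to 0.587 FPKM from 6.86 FPKM, by the 8 h values of the authors' deposited table (q = 0.000181). Glyma05g08940 (chromosome 5, 8801370 to 8803244) had 8.70 FPKM in control and 0.758 FPKM at 8 h, with q = 0.0741 in the authors' deposited table. Glyma14g02290 (chromosome 14, 1392360 to 1392861) had 22.4 and 3.69 FPKM there, with q = 0.105 in the authors' deposited table. In all, 5 members were not called at 8 h, and their standard errors of 0.720 to 2.80 lay above the median of 0.50 over the members. Called members also lay in that range, such as Glyma20g12263 with 0.817. Why the 5 were not called was not tested. The other 3 of the 5 were Glyma09g32685, described with the high levels further on, and Glyma14g37528 and Glyma06g38865, both chosen after their values were seen, with q of 0.593, 0.240 and 0.0668 in the authors' deposited table. Glyma20g12263, Glyma09g32685 and Glyma14g37528 share their locus entries with other gene IDs.

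Most members were expressed at middle levels in control. Of the 154, 110 had between 5 and 20 FPKM in the control of the 8 h table, 35 had between 2 and 5, and 9 had 20 or more. By level, members were 1.43% of flat genes between 2 and 5 FPKM, 3.35% between 5 and 10, 3.42% between 10 and 20, 0.684% between 20 and 50, and 3.27% (5 of 153) at 50 or more. Between 1 and 2 FPKM there were 0 of 1116, where the added 1 FPKM leaves little or no room for an L of -1.5.

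The 5 members with 50 FPKM or more were mostly neighbours of each other. Glyma09g34625 (chromosome 9, 40957583 to 40957811) had the highest level, with controls of 293, 370, 372 and 309 FPKM and treated levels of 330, 402, 303 and 64.8 FPKM. Its locus covers 229 bases, the shortest of all members. Glyma09g34610 (chromosome 9, 40952171 to 40957166), which lies 416 bases before it, had controls of 73.6, 80.4, 80.7 and 66.8 FPKM and treated levels of 81.4, 84.96, 60.1 and 13.7 FPKM. Both kept similar shares of control at 8 h, 21.0% and 20.5%, and the authors' deposited table for 8 h called both at q = 0.000181.

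A similar pair lay on chromosome 1. Glyma01g35190 (47727548 to 47732948) had treated levels of 72.2, 53.0, 63.7 and 16.4 FPKM against controls of 60.9, 64.7, 64.9 and 53.7 FPKM. Glyma01g35201 (47733363 to 47734311), 414 bases further on, had 76.3, 63.2, 66.5 and 20.02 FPKM against 58.1, 75.3, 75.5 and 62.3 FPKM. They kept 30.6% and 32.1% of control at 8 h, and the authors' deposited table for 8 h called both at q = 0.000181. The last of the 5, Glyma09g32685 (chromosome 9, 39173954 to 39183935), stood at 80.6 FPKM in control and 20.5 FPKM at 8 h, with a computed log2 ratio of -1.97 and a standard error of 2.78.

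The remaining genes with high control levels lay between 17.8 and 31.5 FPKM in the control of the 8 h table. Glyma09g29720 (chromosome 9, 36540971 to 36548174) dropped to 9.63 FPKM at 8 h from a control of 31.5 FPKM. Glyma11g26365 (chromosome 11, 25144283 to 25145682) ended at 6.47 FPKM, with a control of 20.5 FPKM. Glyma12g01630 (chromosome 12, 975871 to 984447) ended at 5.02 FPKM, with a control of 17.8 FPKM. All 3 had q = 0.000181 at 8 h in the authors' deposited table and kept 28.1% to 31.5% of control, near the upper end of the range over members.

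**Figure D2:**
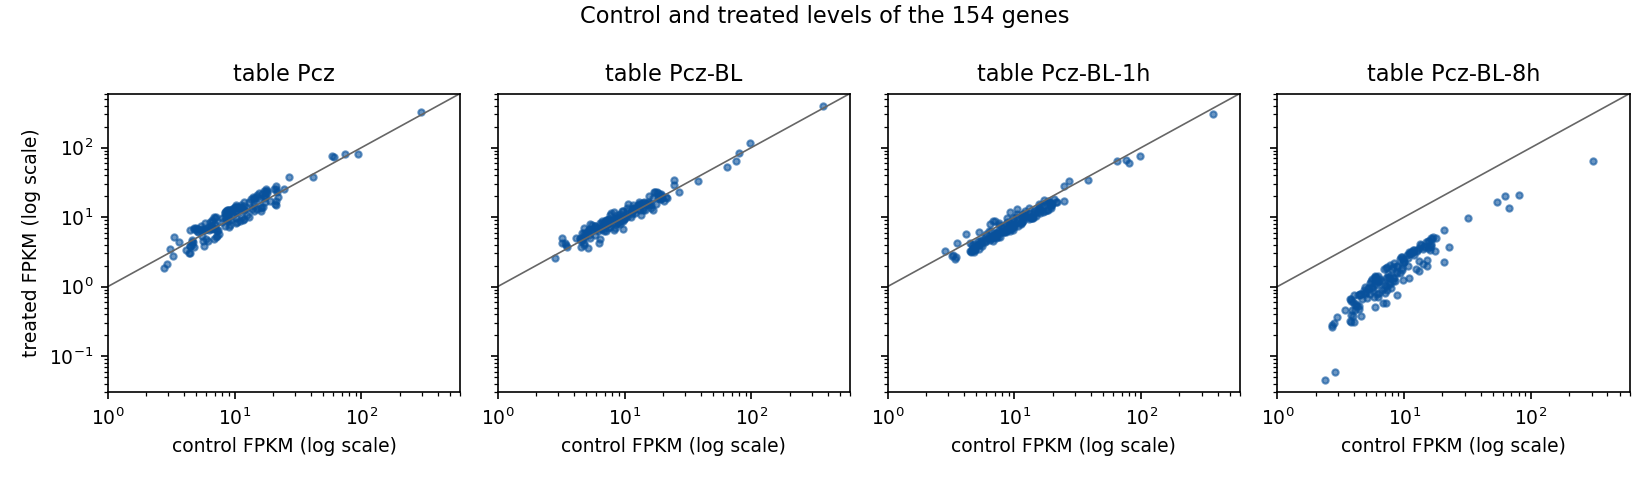
Treated against control FPKM (both axes on a log scale) for the 154 genes in each deposited table, with 1 point per gene and a line of equal levels. Points follow the line in the first 3 panels and lie below it in the last, the 8 h table, where the highest gene has 309 FPKM in control and 64.8 FPKM after treatment.

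Members were found on all 20 chromosomes. Chromosomes 1 and 10 held the most, with 12 each of 305 and 419 flat genes (3.93% and 2.86%), and chromosome 16 the fewest, with 2 of 273 (0.733%). There were 8 pairs of members with no other gene ID between them, which hold 16 genes. In 5 of the pairs the loci were separate and fewer than 500 bases apart. One more pair, Glyma01g16370 and Glyma01g16375 (chromosome 1, 20243646 to 20255339), has the same locus entry for both IDs, so their loci overlap and reads of one may be counted for the other. Neighbours that are so close may share reads or belong to 1 transcript unit, which was not tested.

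Within the 8 pairs the largest difference of L in any table ran from 0.08 to 0.58. The rule itself confines members to a narrow range of L, so these differences are a description and say nothing of neighbours against other members. Glyma18g08630 (chromosome 18, 7348627 to 7357201) and Glyma18g08640 (7366065 to 7375432), 8863 bases apart, were both among the 10 with the lowest L. The first had treated levels of 25.7, 16.2, 15.4 and 1.69 FPKM and the second 21.9, 12.7, 11.3 and 1.25 FPKM in the 4 tables, against controls of 21.3, 15.5, 15.6 and 13.0 FPKM and of 15.7, 11.6, 11.7 and 9.73 FPKM. Their L differed by at most 0.20 in any table. For Glyma06g15560 (chromosome 6, 12262533 to 12263373) and Glyma06g15570 (12263395 to 12265727), 21 bases apart, the largest difference of L was 0.08, and they fell to 0.521 and 0.455 FPKM at 8 h.

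The pair on chromosome 1 made of Glyma01g04484 (4023641 to 4024312) and Glyma01g04492 (4024327 to 4035566) lies 14 bases apart. Glyma01g04484 was the member nearest to control in the other 3 tables, with an absolute L of at most 0.08: treated levels were 9.55, 11.3, 12.4 and 2.23 FPKM against controls of 10.2, 12.0, 12.1 and 10.0 FPKM. The next flattest, Glyma18g44860 (chromosome 18, 54584885 to 54593554), reached 0.18, with 13.3, 12.6, 12.6 and 2.85 FPKM against 14.9, 14.4, 14.5 and 12.0 FPKM. The largest difference within a pair, 0.58, was between Glyma20g22731 (chromosome 20, 32644513 to 32646814) and Glyma20g22741 (32648821 to 32650871), at L of -1.51 and -2.09 at 8 h. Expressed genes next to a member that were not members themselves had a median L of -0.37 at 8 h (179 genes), against -0.20 over all expressed genes. Of them, 19 (10.6%) had L of -1.5 or lower, where the share of all expressed genes was 8.33%. Members, all at that L by the rule, were left out of the first share and kept in the second. The 2 shares are therefore not a like comparison.

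**Figure D3:**
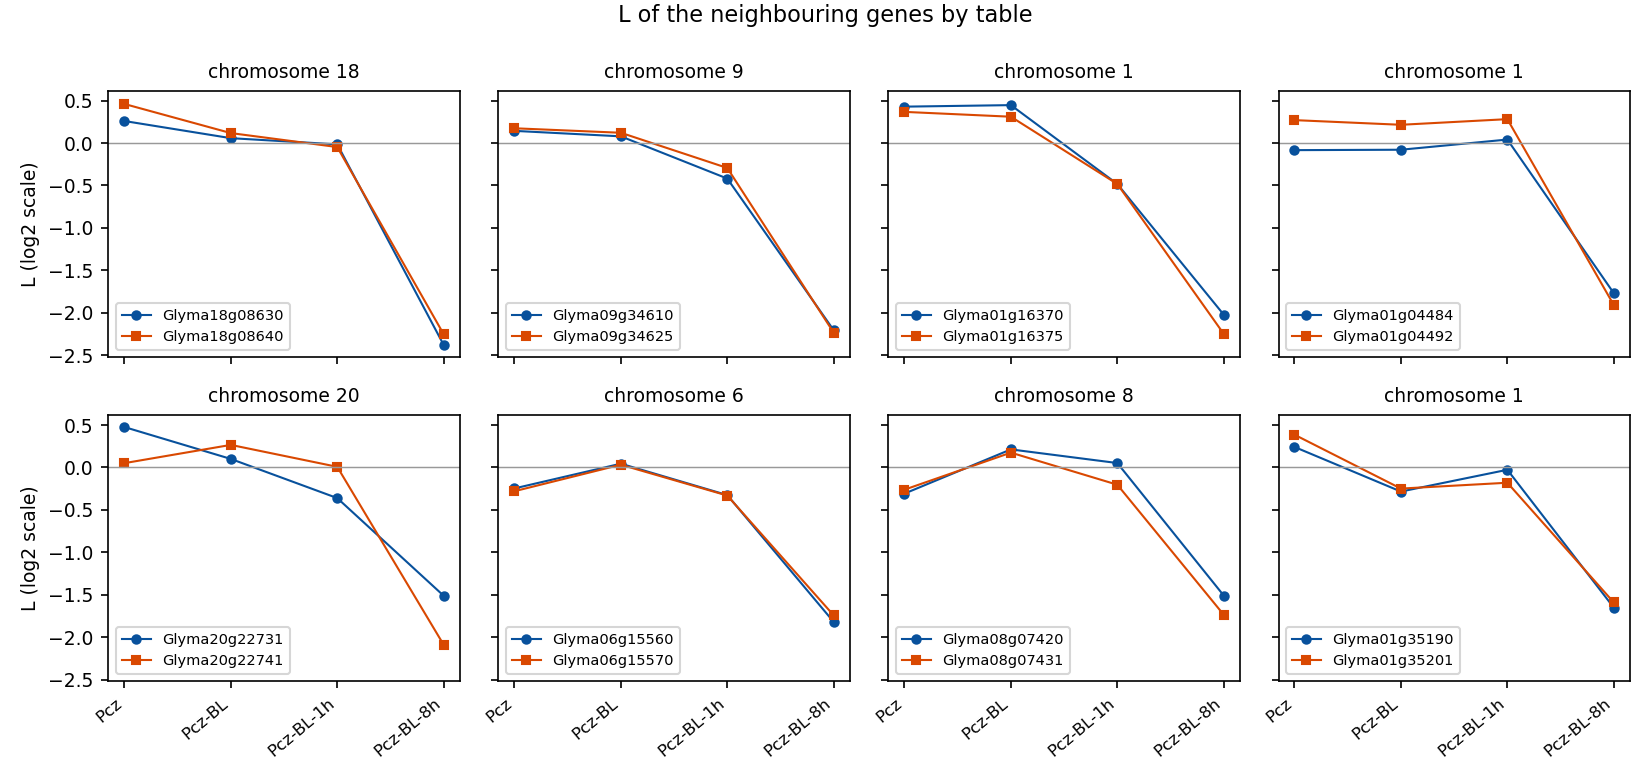
L (log2 scale) in the 4 deposited tables for the 8 pairs of members that are neighbours in gene order, with 1 line per gene. The 2 lines of a pair differ by 0.08 at most on chromosome 6 and by up to 0.58 on chromosome 20.

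The rule did not use the length of a locus, and in this the members differed from other flat genes. The locus span, which runs from the first to the last base of the locus as the tables give it, introns included, had a median of 8576 bases in members and 4809 bases in flat genes. Of the 154, 85 (55.2%) lay in the longest quintile of flat genes, 23 in the shortest, and 9, 13 and 24 in those between. Members were 5.62% of flat genes in the longest quintile, which starts at 7974 bases, and between 0.595% and 1.59% in the other 4. With control levels held between 5 and 20 FPKM, the median spans were 9085 bases in 110 members and 5123.5 bases in 3258 flat genes. Without loci shared by several IDs they were 8101.5 bases in 140 members and 4683 bases in flat genes. Transcript lengths are not in the files used here, and no test was made of this difference.

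Genes with other patterns had shorter loci. The 82 genes raised only at 8 h (L of 1.5 or more there, the same limits elsewhere) had a median span of 2208.5 bases, with 54 in the shortest quintile and 0 in the longest. The 85 genes lowered at both 1 h and 8 h and flat in the other tables had a median span of 3893 bases and a median control level of 19.1 FPKM, against 7.57 FPKM in the members. Only 7 genes were lowered at 1 h and in no other table, with a median span of 1526 bases. They are the same 7 genes that the rule picks when tables are assigned by column header.

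Span moved with L over the whole 8 h table and not only among members. Over expressed genes, median L at 8 h fell from 0.16 in the shortest quintile through 0.05, -0.11 and -0.33 to -0.64 in the longest. In the inhibitor table it went up from -0.33 to 0.16, in the low-BL table from -0.40 to -0.01 and in the 1 h table from -0.26 to -0.13. The share of expressed genes with L of -1.5 or lower did not rise steadily with span at 8 h. From the shortest quintile to the longest it was 8.45%, 5.87%, 6.23%, 8.51% and 12.6%. In the inhibitor table it was 17.5%, 12.3%, 8.75%, 7.83% and 5.31%. With L centred within 20 classes of span, an alternative added after the data were seen, 90 genes met the rule, of which 53 were among the 154. The median span of those 90 was 3851.5 bases. Of them 85 were called lower in the authors' deposited table for 8 h, against 30.7% of all tested genes, and the rule used that contrast.

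**Figure D4:**
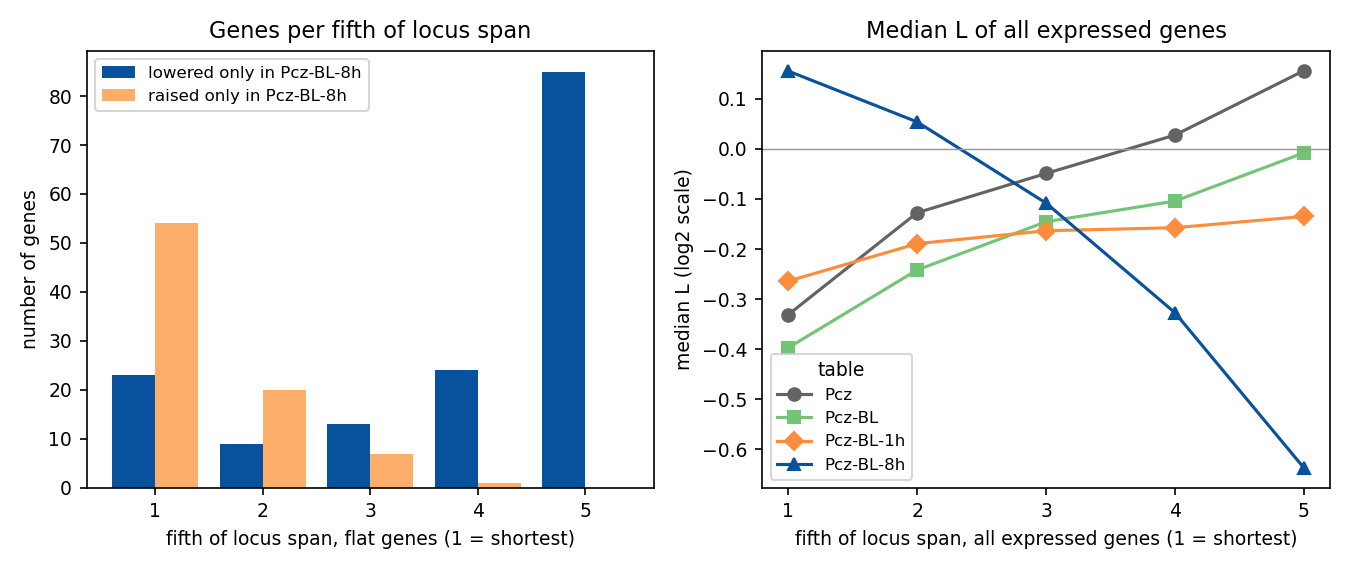
Left, number of genes lowered only (154) and raised only (82) at 8 h in each quintile of locus span of flat genes, from the shortest to the longest. Right, median L (log2 scale) of all expressed genes in each quintile of their locus span, with 1 line per deposited table: the 8 h line falls from 0.16 to -0.64 and the inhibitor line rises from -0.33 to 0.16.

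Of the 154 genes, 103 (66.9%) were in the authors' short list for 8 h, and 0 were in the other 3 short lists. The rule held every member to an absolute L below 0.5 in those 3 comparisons, so the 0 reflects the rule. It also used the 8 h contrast, so the 103 are a description. The short list for 8 h holds 3981 genes with an absolute log2 fold change of at least 2. Its lower genes were 6.13% of all tested genes. The authors' fold change is taken without an added 1 FPKM. Under that measure the deepest changes were in genes with low control levels, which were chosen here after their values were seen. Glyma17g36340 had 2.38 FPKM in control and 0.0447 FPKM at 8 h, with a computed log2 ratio of -5.73 and a standard error of 1.28. Glyma08g24960 had 2.87 and 0.0588 FPKM, with -5.61 and 1.19. Their q in the authors' deposited table were 0.0145 and 0.00119. Neither gene was in the short list for 8 h, although both computed ratios pass its limit of 2. That limit alone therefore does not define the list.

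At the threshold the values were continuous. The last members were Glyma08g07420, Glyma04g36700 and Glyma08g36270, each at L of -1.51 in the 8 h table, with treated levels of 3.19, 1.43 and 4.05 FPKM against controls of 10.9, 5.92 and 13.4 FPKM. Just outside were Glyma06g48290, Glyma06g04230 and Glyma20g02760, each between -1.499 and -1.498, with 2.79, 0.655 and 1.84 FPKM against 9.71, 3.68 and 7.03 FPKM.

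Control levels of the same gene also depended on the table. Over the members, control FPKM of the low-BL and 1 h tables was 1.20 and 1.21 times that of the 8 h table at the median, with a range from 1.19 to 1.22 in both together. In the inhibitor table the ratio ran from 0.933 to 1.65 with a median of 1.19, and the SD of its log2 was 0.155 against 0.00489 for the low-BL table. Each L was taken within its own table, and FPKM of different tables are not on the same scale.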

How the data were processed

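Whole-seedling mRNA was sequenced, and per the labels' protocols the TruSeq kit kept strand. The authors deposited 4 full tables with FPKM pooled into 1 value per group, made with Cuffdiff per the file headers; aligner, genome build, gene annotation and program version: not given in the sources used here. The score column holds the authors' test statistic, and the deposited p-value and q-value are theirs. The 4 short lists hold the log2 fold change that the authors deposited. Depth is unknown.

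L and the member rule were computed with Python 3.11.15, pandas 2.3.3, numpy 2.4.6 and scipy 1.17.1. The computation of the rule was checked on simulated data with large planted changes and very little noise. Such a setting is unlike these data, so the check says nothing of how certain the members are. Calls are the authors' q of 0.05 or less with status OK, adjusted over all tested genes of a table. Standard errors are the absolute ratio of log2 treated over control FPKM to the test statistic. The authors' p does not always follow from them. For Glyma09g34625 with inhibitor alone the test statistic was 3.17, with an authors' Cuffdiff p of 0.434. The full tables' own fold change columns hold spreadsheet errors and were not used. The planned fit on values per library could not be made on pooled values. Whether replicate libraries are separate plants is not in the labels, so p-values may reflect technical spread alone. The members and lists were chosen with earlier results of these data known. Genes are named by rule: the 10 members with the lowest L at 8 h, the 10 with the highest control level in that table, up to 6 neighbouring pairs with the lowest mean L, 3 genes on each side of the threshold, and the 2 flattest elsewhere; others are said to be chosen after their values were seen. Alternatives were other pseudocounts, minimum levels, limits on L, centring, table assignment and call rules.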

Additional observations from a re-analysis of the deposited data

How the results depend on the processing

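Of 96 recomputed values under 13 alternative settings, 52 stayed within 1.5 times the value given (the median L within 1 SD over members). The medians could not change sign, because the rule fixes the sign of L at 8 h and spans are positive. Leaving out the cap or the minimum on control FPKM returned the same 154 genes. The values under those settings are therefore among the 52 without being a check. The calls below, at a q of 0.05 or less unless said otherwise, stand beside the shares over all tested genes. With tables assigned by sheet name these were 53.4%, 36.2% and 52.1% in the inhibitor, low-BL and 1 h tables. At 8 h 30.7% were called lower. The rule used all of these contrasts, so the counts are a description. The number of genes meeting the rule, 154, became 393 with a pseudocount of 0.1 (median L -2.18; calls 16, 0 and 26 in the inhibitor, low-BL and 1 h tables), with 95 of the 154 among the 200 kept. With a pseudocount of 5 it became 11, with 7 called lower at 8 h, 2, 0 and 3 called in the other tables, and 2 next to another member. With an absolute L below 0.25 elsewhere 14 genes met the rule, 14 called lower at 8 h, 0, 0 and 0 called in the other tables and 0 next to another. With a limit of 1 there were 805, and 25 of the 154 were among the 200 kept. These 200 had a median L of -2.28, 61, 43 and 129 calls in the other tables and 29 next to another member. Assignment by column header gave 7 genes, 7 called lower, 0, 0 and 0 called in the other tables, 0 next to another member and a median span of 1526 bases. With L centred on the table median, 127 genes met the rule, 73 of them among the 154, with 10 called in the inhibitor table and 3 in the low-BL table. With L centred within classes of locus span, added after the data were seen, the values were 90 genes, 85 called lower, 7 called in the low-BL table, 19 at 1 h, 8 next to another member and a median span of 3851.5 bases. An authors' q of 0.01 or less left 1, 0 and 8 calls in the inhibitor, low-BL and 1 h tables (backgrounds 42.3%, 26.5% and 41.8%). The normal distribution of the test statistic left 2, 0 and 0 (backgrounds 34.3%, 15.7% and 29.7%). The reasons for these shifts were not tested beyond what each setting changes by construction. No paired analysis was possible because the tables hold 1 pooled value per group, and no replicate could be left out for the same reason.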
